A study of Mus musculus with 6 samples.

Results

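The subject here is the set of unannotated transcripts with class code u, the code that transcript assembly comparison gives to an assembled transcript lying outside every annotated gene. All rows of the linear transcript table with this code were taken, whatever their level, which gave 4278 transcripts of 175010 in all. They carried 4215 assembled gene identifiers, called loci below, and 4176 loci had 1 transcript, 25 had 2, 8 had 3, 2 had 4 and 4 had 5. RNA came from prefrontal cortex of male C57BL/6 mice sampled at 30 weeks of age, whose gavage began at 5 weeks. The control group received water (0 mg/kg) and the PS_high group polystyrene nanoparticles (PS NPs, 50 mg/kg), by oral gavage every day for 6 months, with 3 samples each. The labels list separate samples and do not state whether each was 1 mouse, so the p-values measure the spread between these samples.

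Transcription outside annotated genes has several known sources. They include long intergenic non-coding RNA genes (lincRNAs), RNA made at enhancers, read-through past the end of a gene, promoter-associated antisense RNA, and pieces of long pre-mRNA from introns of isoforms that an annotation lacks. Ribosomal depletion of total RNA, as used here, keeps RNA without a poly(A) tail and pre-mRNA as well as mature mRNA. Brain genes with very long introns are known for abundant intronic RNA in such libraries.

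The name intergenic held against the annotation of the table but only in part against RefSeq. Of the 4278 transcripts, 1 overlapped an annotated row of the table. Against RefSeq genes of GRCm38.p6, 989 overlapped a gene span and 3289 overlapped none. The former included 505 that overlapped lncRNA genes only, 37 that overlapped pseudogenes only and 408 that touched the span of a protein-coding gene. Those 408 held 47.0% of the counts of all class u transcripts, and the 3289 outside every RefSeq gene held 43.3%. The build of the table is not stated. It was compared through 968 microRNA hairpins, of which 965 had identical positions in GRCm38.p6, and coordinates below are those of the table. No microRNA hairpin overlapped a class u transcript.

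The bases of these transcripts themselves were not read here. RefSeq promoters that they overlap are shown instead, because they give the sequence context of the loci with the most reads or the most exons. Each window runs from 250 bases before to 50 bases after an annotated start, 300 bases in all, in GRCm38.p6 and written 5′ to 3′ on the strand of the gene. Capitals mark the CCAAT box or its reverse complement, ATTGG. The first window belongs to Robo2 (chr16:75092721-75093020, minus strand) and is overlapped by 4 class u transcripts. MSTRG.15769.6 and MSTRG.15769.7 lie on the minus strand, and MSTRG.15777.1 and MSTRG.15777.2 on the plus strand. The second belongs to Snrpn (chr7:60450128-60450427, minus strand) and is overlapped by MSTRG.35244.1, which lies on the plus strand. The third belongs to the lncRNA gene A230006K03Rik (chr7:61089688-61089987, minus strand) and is overlapped by the 6-exon transcript MSTRG.35265.5. The fourth belongs to the lncRNA gene Gm34406 (chr19:60670738-60671037, plus strand) and is overlapped by the 6-exon transcript MSTRG.20347.1, which lies on the minus strand. The fifth belongs to the lncRNA gene Gm19378 (chr15:89767365-89767664, plus strand), whose span is overlapped by MSTRG.14223.1, the class u transcript of highest level. That transcript is on the same strand and begins 423 bases after the annotated start, so it does not reach into the window.
Robo2: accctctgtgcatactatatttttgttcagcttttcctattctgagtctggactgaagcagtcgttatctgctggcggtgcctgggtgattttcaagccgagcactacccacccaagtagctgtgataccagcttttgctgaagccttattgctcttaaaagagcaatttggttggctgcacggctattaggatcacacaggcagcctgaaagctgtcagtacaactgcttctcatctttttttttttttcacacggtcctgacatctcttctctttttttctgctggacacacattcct
Snrpn: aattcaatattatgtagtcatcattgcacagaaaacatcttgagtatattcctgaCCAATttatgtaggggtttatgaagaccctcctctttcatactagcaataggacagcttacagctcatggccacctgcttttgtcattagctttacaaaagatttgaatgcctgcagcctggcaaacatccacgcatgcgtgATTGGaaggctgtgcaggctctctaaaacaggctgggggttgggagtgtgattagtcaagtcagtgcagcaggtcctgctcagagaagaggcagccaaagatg
A230006K03Rik: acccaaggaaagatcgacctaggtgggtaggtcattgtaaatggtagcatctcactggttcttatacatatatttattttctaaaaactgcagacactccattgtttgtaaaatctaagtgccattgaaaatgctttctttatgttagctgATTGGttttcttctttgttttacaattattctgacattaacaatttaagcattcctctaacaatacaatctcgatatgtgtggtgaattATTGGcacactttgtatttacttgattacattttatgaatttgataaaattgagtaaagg
Gm34406: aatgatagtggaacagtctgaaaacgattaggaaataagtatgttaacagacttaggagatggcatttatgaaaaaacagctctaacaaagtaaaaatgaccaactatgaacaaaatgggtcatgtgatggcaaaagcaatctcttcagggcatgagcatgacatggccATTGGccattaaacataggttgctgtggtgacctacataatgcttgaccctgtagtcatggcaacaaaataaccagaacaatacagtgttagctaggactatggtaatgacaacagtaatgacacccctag
Gm19378: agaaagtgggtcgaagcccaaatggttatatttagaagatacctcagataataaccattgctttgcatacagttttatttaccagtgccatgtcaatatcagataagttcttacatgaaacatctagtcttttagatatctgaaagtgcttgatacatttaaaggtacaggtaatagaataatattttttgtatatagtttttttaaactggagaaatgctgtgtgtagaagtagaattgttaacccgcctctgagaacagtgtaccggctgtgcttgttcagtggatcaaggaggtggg

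Few class u transcripts covered an annotated promoter. Of 32851 RefSeq promoter windows, 87 were overlapped, by 86 transcripts of which 27 had more than 1 exon. Among the overlapping pairs of transcript and promoter, 45 had the same strand, 18 had opposite strands and 33 involved a transcript without a strand. Both strands were searched and each motif was counted on its own, whether or not it overlapped another. The TATA box (TATAAA) stood in 14 of the 87 windows (16.1%) and in 13.6% of all windows. The CCAAT box stood in 39 (44.8%) and in 37.4% of all, and the GC box (GGGCGG) in 27 (31.0%) and in 35.7% of all. The Robo2 and Gm19378 windows held none of the 3 motifs. These matches describe the letters of the windows only.

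Most class u transcripts were short, had 1 exon and carried no strand. There were 4031 with 1 exon (94.2%), 212 with 2, 24 with 3, 7 with 4, 1 with 5, 2 with 6 and 1 with 8. No strand was given for 3677 (86.0%), while 323 were on the plus and 278 on the minus strand. All transcripts without a strand had 1 exon. The median length was 416 bases (quartiles 276 and 897.5), with a minimum of 200 and a maximum of 78685. The 247 transcripts with more than 1 exon had a median length of 2151 bases, against 401 for those with 1 exon. RefSeq genes were overlapped by 55.9% of the former and 21.1% of the latter. Among transcripts that touched a RefSeq protein-coding span, 42 of those with several exons lay on the strand of the gene and 27 on the other. Among those with 1 exon, 39 were on the same strand, 41 on the other and 166 had no strand.

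Levels are given as FPKM, the authors' fragments scaled to transcript length and library size. The median over the 4278 transcripts was 1.51 FPKM (quartiles 1.13 and 1.92). A mean of 0.5 FPKM or more was reached by 4162, of 1 or more by 3498, of 5 or more by 121 and of 10 or more by 29. Counts were found in all 6 libraries for 3605 and in none for 5. Longer transcripts had somewhat higher FPKM (Spearman's rho 0.33 over 4162 transcripts that share the same libraries), and distance to the nearest protein-coding row bore almost no relation to it (rho 0.00). The spread within a group depended on the count. The median coefficient of variation was 93.6% for the 594 transcripts with a mean count under 20, 41.3% for 2480 with 20 to 99, 23.3% for 1002 with 100 or more but under 1000 and 18.4% for 197 with 1000 or more.

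**Figure D1:**
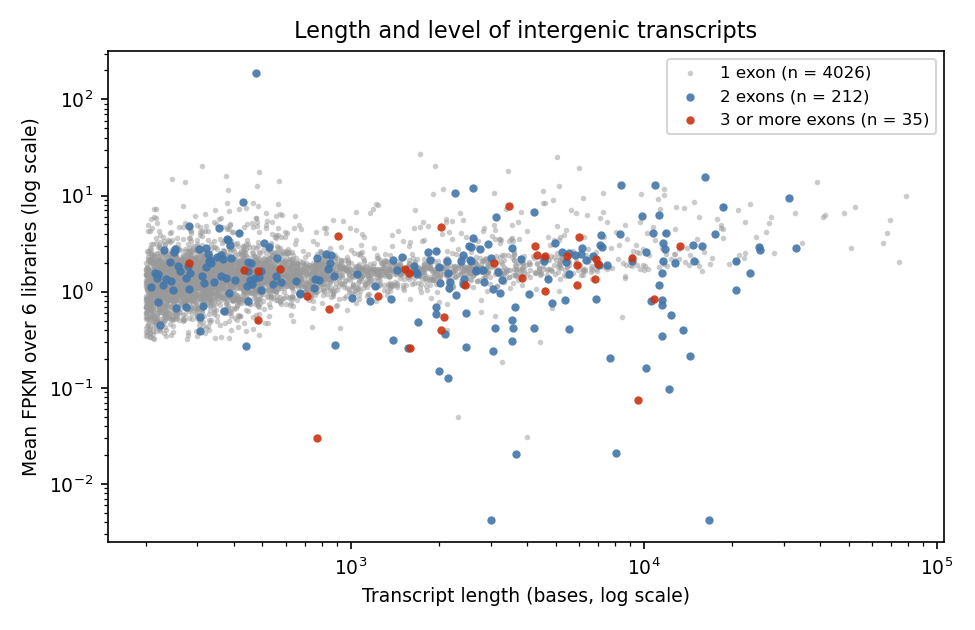
Length in bases (x axis, log scale) against mean FPKM over 6 libraries (y axis, log scale), 1 point for each class u transcript with any count, coloured by number of exons. Most points lie between 200 and 1000 bases near 1.51 FPKM, and 1 transcript of 2 exons, MSTRG.14223.1, stands at 187.8 FPKM.

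The reads were concentrated in a few long transcripts. The 110 transcripts of at least 10000 bases (2.57%) held 53.0% of all class u counts, and the 1307 under 300 bases held 2.58%. The 10 transcripts with most counts held 20.6%, the top 100 held 57.9%, and 64 transcripts together held at least as many as all others. The less abundant 2139 transcripts held 4.40%.

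The transcript of highest level was MSTRG.14223.1, overlapping Gm19378 (chromosome 15, 89768038 to 89768911, 2 exons, 476 bases), 13481 bases after the end of the nearest protein-coding row, that of Syt10, a synaptotagmin. Its FPKM were 160.6, 150.7 and 199.5 in the controls and 224.0, 161.4 and 230.5 in PS_high, so the groups overlapped. MSTRG.39221.1 lay 326 bases after the end of the nearest row of Cmip, an adaptor protein gene, on the opposite strand, and overlapped the RefSeq span of Cmip. It stood at 21.1, 27.2 and 26.0 FPKM in the controls and 29.1, 29.2 and 28.4 in PS_high, and here the groups did not overlap (log2 difference 0.24, SE 0.18, edgeR adjusted p = 1). MSTRG.38050.1, 7311 bases after the end of Gpm6a, a neuronal membrane glycoprotein gene, on the opposite strand, stood at 30.5, 22.6 and 27.7 FPKM and at 21.6, 23.7 and 25.0. MSTRG.19933.1, 310 bases after the end of a row of Cpeb3, which encodes an RNA-binding regulator of translation, stood at 20.003, 20.05 and 21.2 FPKM in the controls and 21.2, 19.4 and 19.3 in PS_high. It too was on the strand opposite to the gene. All 4 had counts in every library.

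Among the 8 of highest level, 1 varied far more. MSTRG.8200.1, a 1-exon transcript of 3444 bases without a strand, 2577 bases after the end of D630036H23Rik, had 2168, 1595 and 12113 counts in the controls and 5566, 1154 and 5869 in PS_high. Its FPKM ran from 5.30 to 44.2, with the extremes in different groups. MSTRG.28223.1, 17522 bases after the end of Ahdc1 on the same strand, stood at 16.5 ± 4.02 FPKM in the controls and 22.01 ± 4.39 in PS_high (SD, n = 3). MSTRG.21967.1, which lies 6216 bases before the olfactory receptor gene Olfr1143, stood at 19.98 ± 0.747 and 20.6 ± 2.05. MSTRG.5212.1, 72162 bases after the end of Ramp3, which encodes a receptor activity modifying protein, stood at 16.9 ± 1.07 and 18.3 ± 2.97.

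Class u transcripts were found on every chromosome but the mitochondrial one. Relative to annotated protein-coding genes they were most frequent on chromosome X (357, or 37.7 per 100 genes), 12 (239, or 37.1), 18 (177, or 34.7) and 16 (204, or 30.9). The lowest frequencies were on chromosome 11 (171, or 10.4 per 100 genes) and 7 (216, or 10.7). Chromosome 16 held 27.0% of all class u counts with 4.77% of the transcripts.

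Distance to the nearest protein-coding row of the table had a median of 26563.5 bases. It was up to 1000 bases for 235 transcripts, over 1000 and up to 5000 for 726, up to 20000 for 991 more, up to 100000 for 975, up to 500000 for 1029 and over 500000 for 322. The transcripts over 100000 and up to 500000 bases away held 46.9% of class u counts. Before the start of the nearest row lay 2144 transcripts, and after its end 2134. The sides were unequal near genes. Up to 1000 bases away, 194 lay before a start and 41 after an end, while over 1000 and up to 5000 bases 246 lay before a start and 480 after an end. Of the 521 transcripts within 5000 bases after an end, 42 were on the strand of the gene, 65 on the other strand and 414 had no strand. Of the 440 within 5000 bases before a start, 36 were on the same strand, 48 on the other and 356 without one.

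**Figure D2:**
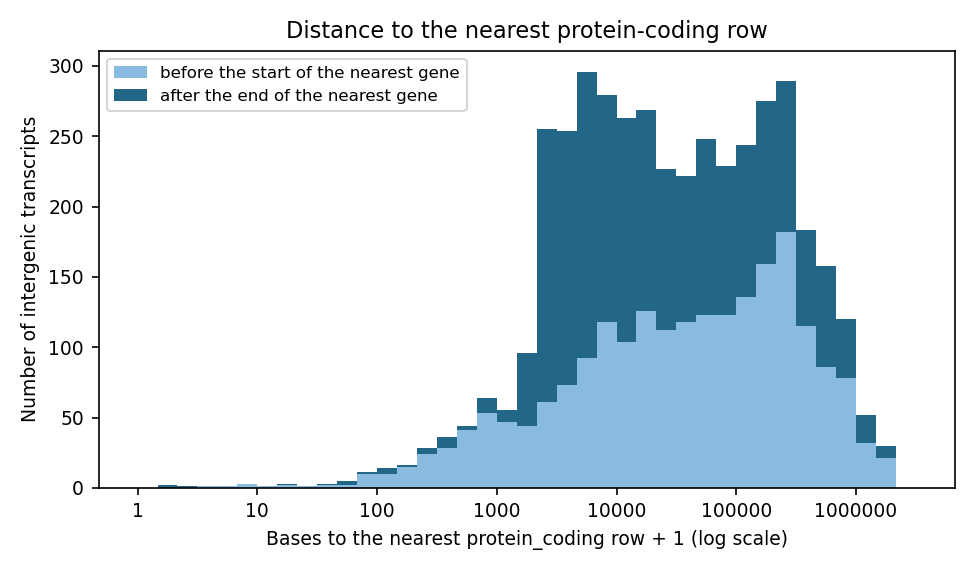
Number of class u transcripts (y axis) by distance in bases to the nearest protein_coding row (x axis, log scale of bases + 1), stacked by side. Before-start transcripts prevail up to 1000 bases (194 against 41) and after-end transcripts over 1000 and up to 5000 bases (480 against 246).

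The 3 farthest transcripts were short and lay in gene deserts. MSTRG.18274.1 was 2083709 bases from Pik3c3, a lipid kinase gene of autophagy, and had 26, 65 and 57 counts in the controls and 30, 11 and 16 in PS_high. MSTRG.37978.1 was 1966347 bases from Aga, a lysosomal enzyme gene, with 53, 54 and 76 counts in the controls and 47, 54 and 89 in PS_high. MSTRG.27175.1 was 1919373 bases from Ptprd, a synaptic receptor phosphatase gene, with 207, 140 and 83 counts in the controls and 181, 181 and 88 in PS_high. In all 3 the groups overlapped.

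Several transcripts often lay around 1 gene, so counts were also summed by neighbouring gene, meaning the protein-coding gene whose RefSeq span they overlap or, failing that, the nearest protein-coding row. This gave 2111 neighbourhoods, of which 1399 had 1 transcript and 38 had at least 10. The first 10 by counts held 55.0% of class u counts. Sums are depth-scaled counts (CPM, scaled with edgeR's TMM factors) and are not divided by length.

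Robo2, a receptor for Slit guidance cues in axon growth, had 47 class u transcripts (chromosome 16, 74475777 to 75382496), all overlapping its RefSeq span. These transcripts held 26.1% of all class u counts. Their sum was 6821, 4631 and 5487 CPM in the controls and 6429, 4522 and 6259 in PS_high, so the groups overlapped fully. The log2 difference was 0.02 (SE 0.19, edgeR adjusted p = 1). The rows named Robo2 in the table, which share exons with annotated isoforms, stood at 205 ± 35.3 CPM in the controls and 215 ± 20.5 in PS_high (SD, n = 3). The longest class u transcript of all, MSTRG.15750.1 (74681469 to 74760153, minus strand, 1 exon, 78685 bases), lay here on the strand of Robo2. It was 269934 bases before the start of the nearest protein-coding row of Robo2, and had 11.3, 8.17 and 10.1 FPKM in the controls and 11.7, 8.16 and 10.2 in PS_high.

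The next neighbourhoods by counts were those of Dmd, Dpp10, Ppargc1a and Slitrk1. Dmd, the dystrophin gene, had 36 transcripts at 1427 ± 366 CPM in the controls and 1428 ± 271 in PS_high (SD, n = 3). Dpp10, which encodes an auxiliary subunit of potassium channels, had 27 at 1066 ± 434 and 1230 ± 569. Ppargc1a, a coactivator gene of mitochondrial biogenesis, had 15 at 1091 ± 218 and 1097 ± 231, all 15 overlapping its RefSeq span. Slitrk1, a synaptic adhesion gene, had 10 at 1051 ± 364 and 1006 ± 266, none overlapping its span. Among them was MSTRG.12813.1 of 69006 bases, 57007 bases after the end of Slitrk1 on the same strand, at 7.45, 4.82 and 4.39 FPKM in the controls and 6.74, 4.37 and 5.24 in PS_high. Differences between the groups were smaller than the spread within each of them in all of these (edgeR adjusted p = 1 for each).

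Of the next 5 neighbourhoods, Sash1 (48 transcripts), the imprinted splicing gene Snrpn (23), Kazn (15), the potassium channel gene Kcna4 (10) and the synaptic adhesion gene Slitrk5 (57), the last 3 were lower on average in PS_high. Kcna4 had the largest difference of the 10, with 530, 442 and 159 CPM in the controls and 212, 152 and 228 in PS_high. The log2 difference was -0.94 (SE 0.39), with an unadjusted p of 0.0422 and an adjusted p of 1 in edgeR, and control 3 lay among the PS_high libraries. The table's rows named Kcna4 stood at 46.5, 96.6 and 167 CPM in the controls and 236, 199 and 244 in PS_high. Those named Kazn stood at 37.5, 36.7 and 29.4 CPM in the controls and 21.7, 21.4 and 20.9 in PS_high, lower like its class u sum. The separation of groups in the rows of both genes was not tested. Kazn, which encodes the desmosomal protein kazrin, held the second longest transcript, MSTRG.28487.1 (74093 bases), with 7340, 23044 and 9071 counts in the controls and 8026, 11951 and 6761 in PS_high, highest in replicate 2 of both groups. The most transcripts around 1 gene were 59 beside Rad51ap2, followed by Slitrk5 and by Dsel with 54, and these 3 held 0.929%, 1.02% and 0.763% of class u counts.

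**Figure D3:**
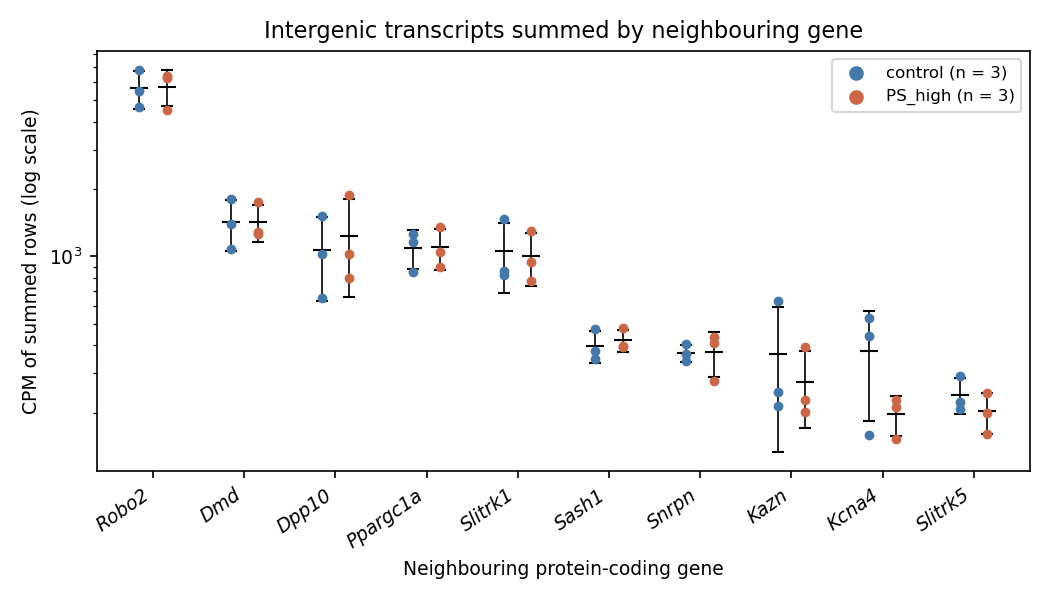
CPM of class u transcripts summed by neighbouring gene (y axis, log scale) for the 10 neighbourhoods with most counts. Points are libraries, dashes the mean and bars the SD of 3 control (blue) and 3 PS_high (orange) libraries, and the groups overlap in all 10.

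Some transcripts had many counts in certain libraries and none in others of the same group, often where class u transcripts overlapped. In 114 transcripts (2.66%) a library had at least 100 counts while another library of the same group had 0. Of these, 41.2% had more than 1 exon, against 5.77% of all class u transcripts. Another class u transcript was overlapped by 36.8% of them and by 3.60% of the rest. MSTRG.15751.1, on the plus strand within the span of MSTRG.15750.1, had 0, 0 and 48522 counts in the controls and 0, 0 and 47096 in PS_high. MSTRG.15769.2 on the minus strand had 4618, 0 and 7356 counts in the controls and 0 in all of PS_high. MSTRG.15770.1, at nearly the same positions on the plus strand, had 0, 9401 and 0 and then 14700, 7630 and 10696. Each library thus had counts for 1 strand of this pair only, and the summed counts were 4618, 9401 and 7356 in the controls and 14700, 7630 and 10696 in PS_high. Where class u transcripts of overlapping span were summed on both strands, 74 of 4151 sums still ranged from at least 100 to 0 within a group. For 1 that overlapped no other class u transcript, MSTRG.12376.1 (27798 bases), counts were 0, 13161 and 0 in the controls and 11398, 0 and 6522 in PS_high.

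The loci with most transcripts had 5 each. MSTRG.15769, at Robo2, had 55825, 20453 and 28662 counts in the controls and 19689, 28640 and 26716 in PS_high, without the counts of its 2 further rows of other classes. MSTRG.1791, at Dpp10, had 8733, 3613 and 6471, and then 9193, 4770 and 1995. MSTRG.30469, at Zfp33b by its RefSeq span, had 2102, 1776 and 2310, and then 2042, 1325 and 1162. Its nearest protein-coding row in the table was that of BC005561. MSTRG.35248, upstream of Snrpn, had 7056, 5960 and 5784, and then 7005, 3431 and 5025, without the counts of its 6 rows of other classes. It held the transcript with most exons, MSTRG.35248.10 (8 exons, 693442 bases before Snrpn), which had only 107, 119 and 30 counts in the controls and 71, 0 and 0 in PS_high, below the level for testing. The 6-exon MSTRG.35265.5 had 1537, 1096 and 1463 counts in the controls and 1235, 508 and 3261 in PS_high, and the 6-exon MSTRG.20347.1 had 257, 338 and 266 and then 177, 204 and 284.

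Some class u transcripts overlapped circular RNAs (circRNAs), which are closed by back-splicing and are counted by reads across that junction. Of 614 circRNAs that the authors' table calls intergenic, 59 overlapped 107 class u transcripts. This held for 24 of the 247 transcripts with more than 1 exon (9.72%) and for 2.06% of those with 1 exon. The former were longer (median 2151 against 401 bases). Overlapping isoforms of a locus were also counted separately, among them several of MSTRG.35248 and MSTRG.35265 near Snrpn that met the same circRNAs. Both ends of 15 circRNAs lay inside 13 class u transcripts. The largest count among these was that of mmu_circ_0001789 within MSTRG.40679.1, nearest to the transcriptional corepressor gene Skor1, with 17, 5 and 0 back-splice reads in the controls and 6, 14 and 12 in PS_high. MSTRG.20347.1 held 4 circRNAs, among them mmu_circ_0007989 with 6, 15 and 10 reads in the controls and 0, 4 and 7 in PS_high. Both were too low for a comparison of groups.

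Class u transcripts were compared with other transcript classes by 1 value per library. Only transcripts averaging 0.5 FPKM or more entered, and 6 libraries allow no p below 0.031 in an exact two-sided sign-flip permutation test. The median level of class u was 1.57 ± 0.0568 FPKM (SD over 6 libraries). Annotated lincRNA transcripts stood at 0.991 ± 0.0700, lower in 6 of 6 libraries. Assembled transcripts inside introns (class i) stood at 1.95 ± 0.168 and assembled antisense transcripts (class x) at 2.38 ± 0.215, both higher in 6 of 6. Each of these 3 differences had p = 0.031, the smallest the exact permutation test can give, and an adjusted p of 0.0417 over 8 such tests. Protein_coding transcripts stood at 1.68 ± 0.152, higher in 5 of 6 libraries (adjusted p = 0.25, exact permutation test). Class u transcripts had counts in 95.7% ± 0.415 of cases per library, lincRNA in 97.3% ± 0.893 and protein_coding in 91.5% ± 1.26 (adjusted p = 0.0417 for both, exact permutation test). The filter weighed unequally: 97.3% of class u but 7.36% of annotated lincRNA transcripts passed it. Class u transcripts are listed because reads were assembled into them, while annotated ones are listed even without counts. Over all transcripts of each class the median lincRNA and protein_coding transcript was at 0, and with at least 1 FPKM the medians of class u and lincRNA differed by 0.00968 FPKM. With at least 1 FPKM protein_coding transcripts stood at 2.71 ± 0.238 FPKM and class u at 1.71 ± 0.0582, a class u minus protein_coding difference of -0.993 in the same direction in 6 of 6 libraries (adjusted p = 0.05, exact permutation test).

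The exposure comparison asked whether these transcripts differed between PS_high and control. Total estimated counts ran from 53344395 to 66004386 per library. Class u transcripts held 2.41%, 2.10% and 2.05% of them in the controls and 2.44%, 1.97% and 2.09% in PS_high (exact two-sided permutation test, p = 0.9; 3 against 3 samples allow no p below 0.1). The share was highest in control 1 and PS_high 1. Class i, the transcripts inside introns, also had its highest shares there, 19.0% and 19.1% against 15.02% to 18.03% elsewhere. In the same 2 libraries the choroid plexus marker Ttr was lowest, at 5.02 and 9.07 FPKM against 117 to 456, and all 4 choroid plexus markers (Ttr, Kcne2, Sostdc1 and Folr1) summed to 5.53 and 9.88 FPKM there and to 119 to 463 elsewhere. The part of these differences between libraries in the class u share was not tested. In such bulk samples, fewer cells of a type and less RNA per cell cannot be told apart. The cortical excitatory neuron markers Slc17a7 (86.6 to 198 FPKM), Camk2a (69.1 to 145), Neurod6 (5.96 to 14.1) and Tbr1 (6.75 to 25.8) were present in all 6 libraries.

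**Figure D4:**
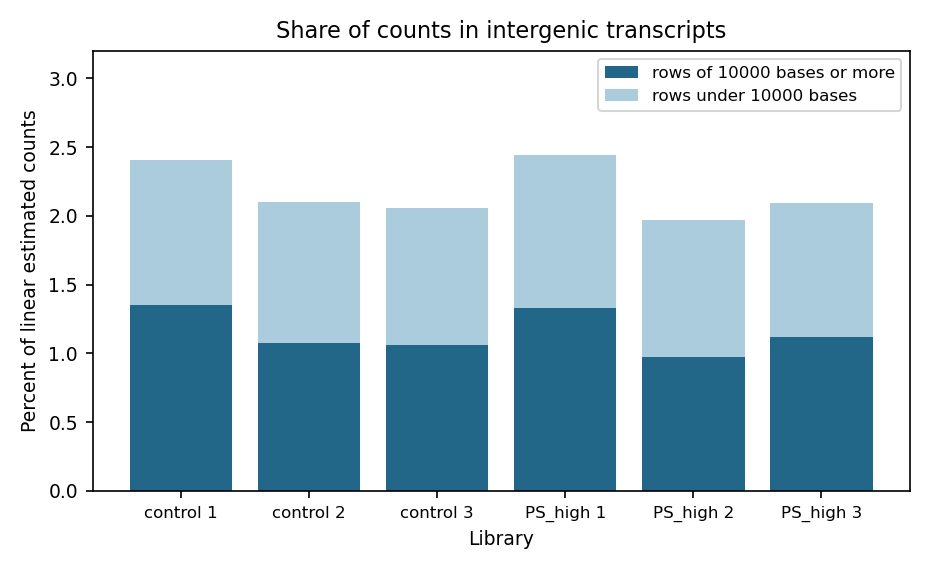
Percent of linear estimated counts in class u transcripts (y axis) by library, split into transcripts of at least 10000 bases and shorter ones. Control 1 and PS_high 1 are highest, at 2.41% and 2.44%, and both parts are of like size in every library.

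The number of class u transcripts with at least 1 count was 4038, 4035 and 4041 in the controls and 4010, 4008 and 4030 in PS_high. The groups did not overlap, and p was 0.1, the smallest the exact two-sided permutation test can give. Total estimated counts were 65219552, 61842978 and 66004386 in the controls and 63466209, 53344395 and 61417412 in PS_high. The part of depth in these numbers was not tested. With at least 10 counts, 3803, 3788 and 3821 were detected in the controls and 3785, 3772 and 3788 in PS_high (p = 0.2, exact permutation test), so the groups met. With at least 0.5 FPKM instead, the numbers were 3697, 3713 and 3676 and then 3675, 3720 and 3683, which overlapped (p = 0.9, exact permutation test). The median level was 1.54 ± 0.0517 FPKM in the controls and 1.60 ± 0.0535 in PS_high (SD, n = 3; exact permutation p = 0.3). Transcripts within 5000 bases of a protein-coding row held 21.0% ± 1.26 of class u counts in the controls and 20.2% ± 0.605 in PS_high (exact permutation p = 0.4).

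Single transcripts were tested with edgeR's quasi-likelihood test over all 69330 isoforms of at least 0.5 FPKM. Of 4162 class u transcripts tested, 0 passed an adjusted p under 0.05, where 0.00433% of all isoforms did, and 131 (3.15%) had an unadjusted p under 0.05 (79 higher and 52 lower in PS_high), where 3.58% of all did. The groups did not overlap for 385 (9.25%; 209 higher, 176 lower), where 8.16% of all isoforms had that pattern. The median log2 difference was 0.05 for class u and -0.01 for all isoforms. DESeq2 called 30 class u transcripts, 20 higher and 10 lower, where it called 1.41% of all isoforms, and with limma on log2(FPKM + 0.1) 0 were called, where 0.0317% of all isoforms were, with 174 (4.18%) at an unadjusted p under 0.05, where 3.75% of all had one. Locus sums in these tests took in rows of other classes at the 25 identifiers that also held such rows. Summed by locus, 0 of 4111 passed in edgeR, where 0.0188% of all loci did. There were 169 (4.11%) at an unadjusted p under 0.05, where the background was 2.56%, and groups did not overlap for 9.1%, where it was 7.25%. DESeq2 called 6 loci, 4 higher and 2 lower, where it called 0.12% of all. By neighbouring gene, 0 of 2061 passed in edgeR, where the background was 0.0197%, 89 had an unadjusted p under 0.05 (background 2.53%), and the groups did not overlap for 10.1% (background 7.2%).

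The 6 higher and 5 lower transcripts of small p with separate groups are given as values, since none passed in edgeR. MSTRG.18701.1 (chromosome 18, 49693091 to 49693428), 2716 bases after the end of Dtwd2, had 0, 0 and 0 counts in the controls and 55, 33 and 36 in PS_high. With a floor of 3 counts over the control group it was at least 44.8-fold higher (adjusted p = 0.381 in edgeR). MSTRG.21796.1 (chromosome 2, 73811378 to 73815096, 2 exons), 1412 bases after the end of the stress-responsive transcription factor gene Atf2 on the same strand, had 33, 55 and 37 counts in the controls and 604, 361 and 177 in PS_high. Its log2 difference was 3.30 (SE 0.55, adjusted p = 0.59 in edgeR), and it is the only one of these 11 with more than 1 exon. The rows named Atf2 stood at 199 ± 9.67 CPM in the controls and 198 ± 29.2 in PS_high (SD, n = 3). The most abundant of the 11, MSTRG.14576.1 (chromosome 15, 103617592 to 103619956), lay 52510 bases before Glycam1, which encodes a mucin-like adhesion ligand, and had 321, 581 and 391 counts in the controls and 1421, 2146 and 1779 in PS_high. Its log2 difference was 2.21 (SE 0.38, adjusted p = 0.656 in edgeR). Glycam1 itself was at 0.301 ± 0.226 and 0.308 ± 0.349 CPM.

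The other 3 higher transcripts had few counts. MSTRG.25379.1, 20962 bases after the end of the steroid dehydrogenase gene Hsd3b6, had 6, 10 and 9 counts in the controls and 28, 26 and 40 in PS_high. MSTRG.3463.1, 63138 bases after the end of Rfpl4b, had 8, 10 and 14 and then 36, 35 and 31. MSTRG.26801.1, 58532 bases before Gm21541, had 75, 55 and 86 and then 154, 148 and 176. Their log2 differences were 2.03, 1.81 and 1.29, with adjusted p from 0.897 to 1 in edgeR.

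On the lower side, MSTRG.41306.1 (chromosome 9, 100077205 to 100077615), 201034 bases before the transcription factor gene Sox14, had 67, 152 and 95 counts in the controls and 0 in each PS_high library. It was at least 96.6-fold lower by a floor of 3 counts over the PS_high group (adjusted p = 0.431 in edgeR, and 0.109 as a locus). MSTRG.39966.1, 390346 bases after the end of Eepd1, had 63, 24 and 10 counts in the controls and 0 in each PS_high library, at least 29.8-fold lower (adjusted p = 1 in edgeR). MSTRG.8915.1, 223 bases after the end of the ubiquitin ligase gene Arel1 on the opposite strand, had 132, 97 and 114 counts and then 61, 46 and 51. MSTRG.15654.1, 22440 bases after the end of Csnka2ip, had 89, 44 and 82 and then 25, 24 and 25, and MSTRG.268.1, 127068 bases before Pi15, had 48, 27 and 39 and then 17, 12 and 11. The log2 differences of these 3 were -0.98, -1.39 and -1.37 (adjusted p = 1 for each in edgeR). For all 11, the neighbouring gene's own CPM overlapped between the groups (Rfpl4b was at 0 counts in all libraries). DESeq2 called each of the 11 but MSTRG.268.1. These calls give no separate support, since the 11 were chosen from the same counts.

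**Figure D5:**
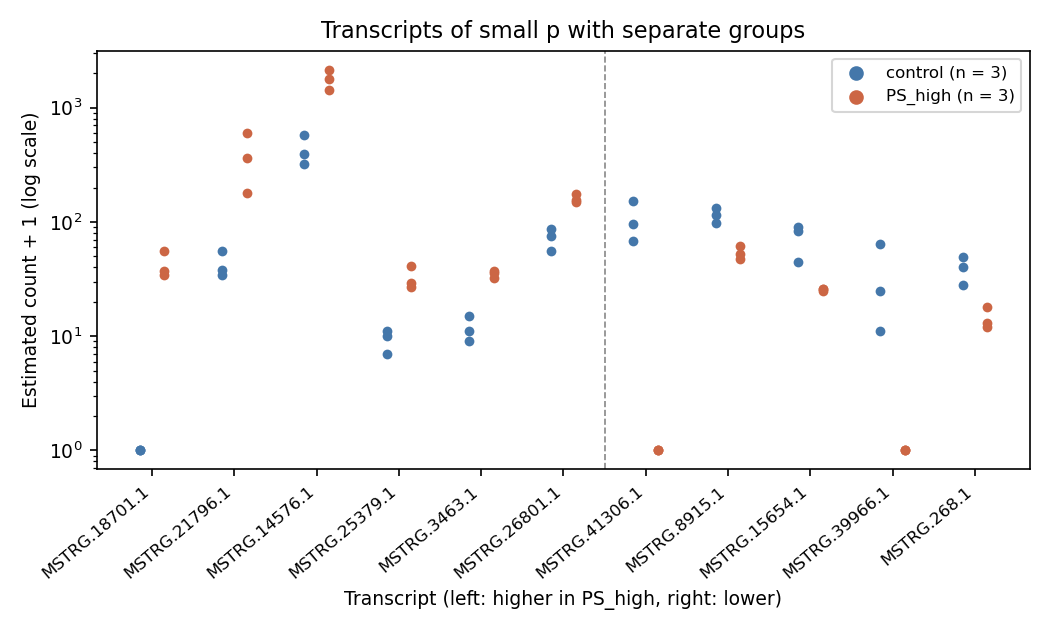
Estimated count + 1 (y axis, log scale) of 11 transcripts of small p whose groups do not overlap, 6 higher and 5 lower in PS_high. Each point is 1 library (3 control in blue, 3 PS_high in orange). MSTRG.18701.1 is at 0 in all controls, and MSTRG.41306.1 and MSTRG.39966.1 are at 0 in all PS_high libraries.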

How the data were processed

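Per the labels' protocols, total RNA of 6 samples was depleted of ribosomal RNA and sequenced with a stranded kit. HISAT2, StringTie and TopHat appear in the submitters' processing notes, and no version, role or genome build is given in the sources used here. The authors deposited estimated counts and FPKM per isoform, and back-splice counts per circRNA. FPKM listed as 0.0001 where the count was 0 were set to 0. The 6 deposited columns of circRNA signal were not used. Estimated counts divide reads among overlapping isoforms, which can move reads between class u rows.

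Isoforms averaging 0.5 FPKM or more, and loci or neighbourhoods with a mean count of at least 10, were fitted with edgeR 4.0.16 (R 4.3.3), TMM factors and Benjamini-Hochberg adjustment over the whole table at 0.05. SE came from the F statistic. DESeq2 1.42.0, limma 3.58.1 on log2(FPKM + 0.1) and other settings were alternatives. Scripts were tested on simulated data. Named transcripts were the 8 of highest FPKM, the 6 higher and 6 lower of smallest p with separate groups, the 3 longest, the 3 with most exons, the 3 farthest from a protein_coding row and the loci with most transcripts. Others were named after their values were seen: the overlapping and all-or-none transcripts, neighbourhoods and circRNAs. Of the lower transcripts 1, and 1 cell type marker, are not reported here. Members and lists were chosen with earlier results of these data known. Floors cover counting error only.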

Additional observations from a re-analysis of the deposited data

How the results depend on the processing

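Counts of calls depended on the test. DESeq2 called 30 transcripts and 6 loci where edgeR called 0 and 0. Without a filter 1 locus passed in edgeR, MSTRG.41306. The calls ran from 0 to 0 transcripts, 0 to 4 loci and 0 to 3 neighbourhoods when each library was left out. Over the whole table the same fits called 0 to 1 isoforms, 0 to 13 loci and 0 to 10 neighbourhood or gene sums, with 13 (0.0305%) and 10 (0.0246%) without PS_high 3. The loci were MSTRG.15756 and MSTRG.15770 (2, without control 2), MSTRG.10585 (1, without PS_high 1), and MSTRG.18998, MSTRG.21796, MSTRG.323 and MSTRG.33667 (4, without PS_high 3). The neighbourhoods were those of Atf2, Cd163 and Smad4 (3, without PS_high 3). In each of these loci but MSTRG.21796, the left-out library lay with the other group. The cause was not tested further.

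With replicate number as a block, edgeR called 0 transcripts and 0 loci. At an unadjusted p under 0.05 there were 118 transcripts (2.84%, against 4.3% of all isoforms) and 164 loci (3.99%, against 3.06% of all). Over isoforms of at least 0.5 FPKM, deviations from the group means were nearly uncorrelated between samples of the same number (0.0149, 0.00641 and 0.00569). Not every library correlated best with its own number. Control 1 and PS_high 1 nevertheless had the highest class u shares (2.41% and 2.44%) and the lowest choroid plexus marker sums (5.53 and 9.88 FPKM). Whether samples of the same number shared a batch was not tested. Robust dispersions, neighbourhood sums and RefSeq-free shares were added after seeing the data.

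Leaving out each library, the PS_high minus control difference ran from -29 to -18 transcripts detected, from -0.157 to 0.0907 percentage points in the share of counts, from 0.0287 to 0.0849 in median FPKM and from -1.41 to -0.151 percentage points near genes. Within 1000 bases of a gene that last difference was 0.193. The share reversed without control 1 (0.0907), PS_high 2 (0.0796) or PS_high 3 (0.0191). Over all rows of each class, class u minus lincRNA was 68.2 percentage points detected and class u minus protein_coding 1.55 in median FPKM. The direction of both was largely set beforehand, since class u rows are assembled from reads and annotated rows are listed even without counts. Class u minus class x was 2.57 percentage points detected. Each of these differences had an adjusted p of 0.031 (exact permutation test). With at least 1 FPKM no adjusted p was under 0.05. The lincRNA differences were 0.00968 in median FPKM and -0.50 percentage points (p = 0.781 and 0.219, exact permutation test). Others kept their direction in 6 of 6 libraries: class i -0.327 and -1.18, class x -0.749 in median FPKM and protein_coding 4.35 percentage points. Each of the latter had p = 0.031, the smallest the exact permutation test can give, and an adjusted p of 0.05. The 11 named transcripts of small p were chosen for separate groups in these same counts, so their sign could hardly reverse. It was kept in all 13 or 14 alternatives of each, which gives no separate support. Transcripts with a mean count under 20 had a wide spread within groups (median coefficient of variation 93.6%). The size of difference that could be found at such counts was not tested.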
